A study of Homo sapiens with 24 samples.

Results

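Gene expression was compared between SAS spheroids that received RT alone and untreated SAS spheroids. The libraries were chosen by their labels, 3 replicates of SAS RT and 3 replicates of SAS Control, which are 6 of the 24 libraries of the series. SAS is an established cell line from human HNSCC (head and neck squamous cell carcinoma), and spheroids are round multicellular aggregates grown from it. The series also holds spheroids of FaDu, another established HNSCC line, and in both spheroid types it has 4 groups (Control, RT, HT and HT + RT) with 3 replicates each, sequenced as bulk RNA. The comparison asks which transcripts RT by itself changes shortly after a dose that the study also gave together with hyperthermia (HT).

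All groups used here had been grown for 4 days to a diameter of about 400 µm and were harvested 0.5 h after treatment. SAS Control spheroids were kept in sealed plates at 37 °C, and SAS RT spheroids received a single X-ray dose of 10 Gy at room temperature. FaDu RT spheroids received 7 Gy, and the HT groups were held at 42.5 °C for 60 min, followed in the HT + RT groups by the same dose as RT alone. Irradiation thus came with time at room temperature, and the methods do not say that the controls spent the same time there, so the dose and the handling cannot be told apart. The replicates are independent experiments by the study's account. The p-values of the fit without a block thus measure the spread between 3 experiments within each group, without any pairing of control and RT libraries. Those of the fit with a replicate block, described below, leave out differences that libraries of the same replicate number share.

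Total counts ran from 17797336 to 19645956 in the 3 SAS Control libraries (median 18201500) and from 18556387 to 19831372 in the 3 SAS RT libraries (median 19253563). At this depth, the median standard error of a log2 fold change was 0.062 for genes with an average level over 6 log2 CPM and 0.42 for genes under 0 log2 CPM. Levels below are CPM, read counts scaled for library depth with TMM factors over all 24 libraries. In bulk RNA, fewer cells with a transcript and less of it per cell cannot be told apart.

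The labels were checked against genes that mark the line and the treatments. SMAD4, a signal transducer of the TGF-beta family that is lost in FaDu, was at 0 CPM in all FaDu Control and FaDu RT libraries and between 51.7 and 56.9 CPM in the 6 SAS libraries. HSPA6, an Hsp70 gene induced by heat, stood at 0.855, 0.342 and 1.05 CPM in SAS Control replicates 1, 2 and 3 and at 1.75, 1.15 and 1.47 CPM in the RT replicates. In the SAS HT libraries HSPA6 stood at 1588, 1956 and 2392 CPM, so no library compared here was at a heated level. Reads of HSPA6 and its near-identical copy HSPA7 may be shared.

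The listed marker genes of epithelium were all measured, and 11 of 11 passed the filter for low counts. Their summed level was 10901, 10679.9 and 9965 CPM in Control replicates 1, 2 and 3 and 11096, 10166 and 9732 CPM in the RT replicates. The keratin genes KRT8 and KRT18 were the most abundant, with means of 4215 and 3006 CPM in controls, beside 1208 CPM for KRT5. Of the 11 markers, 2 had a log2 fold change over 0. KRT14, a keratin of basal cells, had 192, 166 and 201 CPM in controls and 171, 141 and 160.2 CPM after RT, groups that overlap, and fell by 0.24 on the log2 scale when replicate number was a block in the fit, edgeR adjusted p = 0.0045. Fibroblast markers summed to between 1.77 and 2.71 CPM, led by COL1A1. Endothelial markers summed to between 10.96 and 23.55 CPM, led by CDH5, with the defining receptor gene KDR at 0. Leukocyte markers summed to between 8.84 and 11.1 CPM, led by CD14, with the defining gene PTPRC at 0.

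Ionizing radiation breaks DNA, and the break-sensing kinases ATM and DNA-PK stabilize p53, which over hours raises its target genes. On a faster scale, radiation also triggers growth factor receptor, MAP kinase and NF-kappaB signalling, which switch on immediate early genes, short genes whose transcription needs no new protein. Many immediate early products are transcription factors of the FOS, JUN, EGR and KLF families, and others are feedback inhibitors of the pathways that induce them.

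At 0.5 h after RT, a small number of genes stood higher in SAS spheroids, while most of the transcriptome and most p53 and DNA repair genes did not pass the test. DUSP2, CTGF, MT-TT and AC112907.3 rose more than 2-fold. KLF10, CSRNP1, GADD45A, SNHG26, SRSF5, PLK2 and SOWAHC rose by less. Immediate early genes and transcripts of the mitochondrial genome had medians over 0 and zinc finger genes a median under 0, while most of their members did not pass without the block.

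Of 14680 genes tested with edgeR, 11 rose and 0 fell at an adjusted p under 0.05 (0.0749 percent of the tested genes rose). At an unadjusted p under 0.05, 459 were higher and 375 lower, 834 in all (5.68 percent). A gene is called altered below when it passed the adjusted p and also an absolute log2 fold change of 1, the thresholds of the study. Of the 11 genes, 4 were altered (0.0272 percent), and all 4 rose, against 10 altered genes with the DESeq2 Wald test. The median log2 fold change over all tested genes was -0.0037. The count of 4 fell to 1 without Control replicate 1, to 1 without Control replicate 2 and to 0 without RT replicate 2, where edgeR had 549 genes at an unadjusted p under 0.05.

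**Figure D1:**
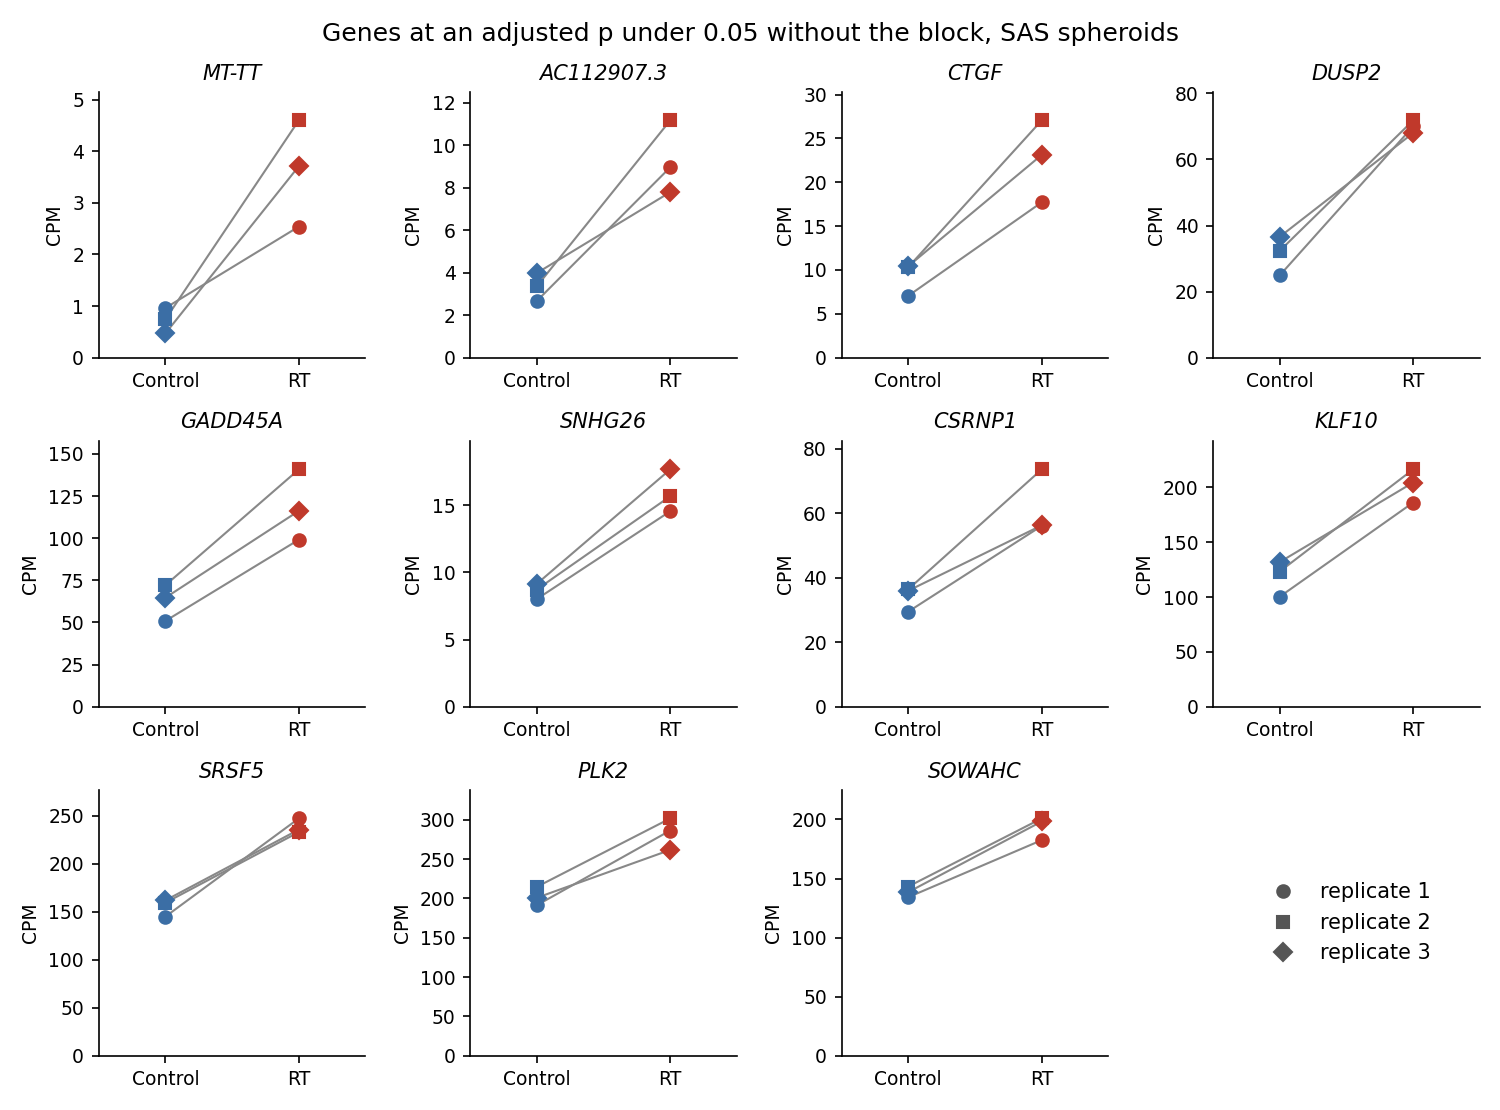
Levels in CPM (vertical axes, from 0) of the 11 genes at an edgeR adjusted p under 0.05, in the 3 SAS Control and 3 SAS RT libraries. Each marker is a library, its shape gives the replicate number, and lines join libraries with the same number. In each of the 11 genes, the 3 RT libraries lie above the 3 control libraries.

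Deviations from the group means were positively correlated between control and RT libraries with the same replicate number, so a second fit took the replicate number as a block, called the blocked fit below. It called 25 genes altered (0.17 percent), 23 higher and 2 lower. At an adjusted p under 0.05 without the fold threshold it called 185 genes higher (1.26 percent) and 103 lower (0.702 percent). The unadjusted p was under 0.05 for 1738 genes (11.8 percent). The counts depended on all 3 replicate numbers. Without replicate 1, 20 genes were altered and 144 passed the adjusted p. Without replicate 2, 8 genes were altered and 73 passed the adjusted p, and without replicate 3, 50 were altered and 659 passed. With the DESeq2 Wald test and the same block, 10 genes were altered and 84 passed the adjusted p. Which libraries shared a day, a plate or a reagent lot is not given, and what the replicate number stands for was not tested.

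Most of these changes were small. The 185 higher genes had a median size of 0.38 on the log2 scale, 123 of them were under 0.5, and 146 were protein coding. The 103 lower genes fell by a median of 0.36, 72 of them by under 0.5, and 99 were protein coding. In 107 of the 185 and 78 of the 103, the 3 RT libraries did not overlap with the 3 controls. Over all tested genes, 800 had every RT library above every control (5.45 percent) and 831 had every RT library below (5.66 percent).

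**Figure D2:**
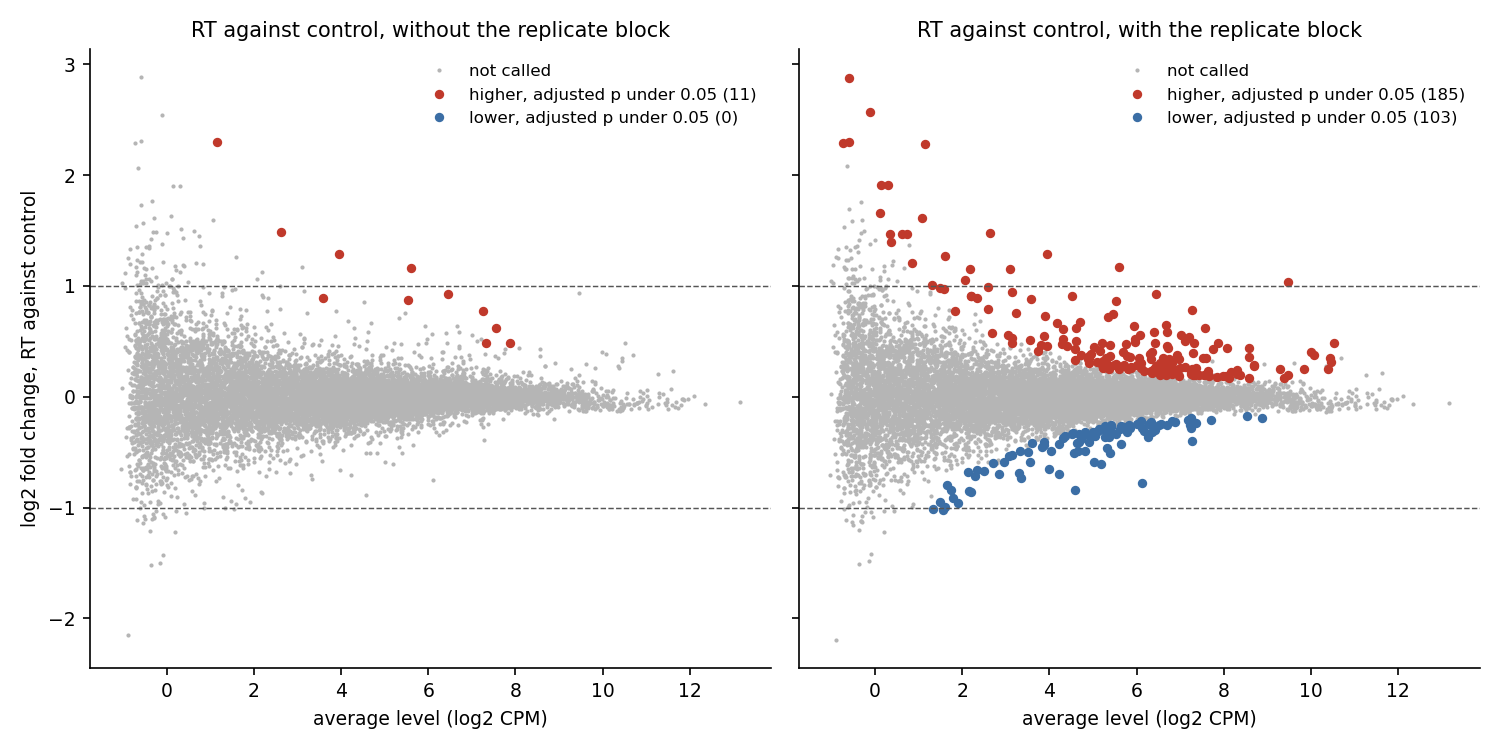
Log2 fold change of RT against control in SAS spheroids (vertical axis) by the gene's average level in log2 CPM (horizontal axis), for 14680 genes, in the fit without the block on the left and with it on the right. Coloured points passed an adjusted p under 0.05, red for the 11 or 185 higher genes and blue for the 103 lower genes. Dashed lines mark a log2 fold change of 1 in both directions, and most coloured points on the right lie between them.

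Immediate early genes had the highest median of the pathway lists. Of 34 listed genes, 32 were tested, 29 had a log2 fold change over 0, and the median was 0.41 against -0.0037 over all tested genes. In the fit without the block, KLF10 and CSRNP1 rose and no other member passed, and in the blocked fit 16 members rose and 1 fell. Of all tested genes, 1.26 percent rose and 0.702 percent fell in that fit, the background for the calls in every list below. Every RT library was above every control in 12 members and below in 1, beside 5.45 and 5.66 percent of all tested genes. The list's median deviation was lower in each control library, -0.23, -0.068 and -0.17 in replicates 1, 2 and 3, than in each RT library, 0.23, 0.34 and 0.081.

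KLF10, an early-response gene for a zinc finger transcription factor of the Krüppel-like family, had 100.3, 123 and 132 CPM in control replicates 1, 2 and 3 and 186, 216 and 204 CPM in RT replicates 1, 2 and 3. Every RT library exceeded every control by a wide margin, and replicate 1 was lowest in both groups. The log2 fold change was 0.77 (SE 0.10), with a 95% interval of 0.56 to 0.99 and an edgeR adjusted p of 0.025. CSRNP1, which encodes a nuclear protein of the early response, had 29.5, 36.4 and 35.99 CPM in controls and 56.1, 73.6 and 56.3 CPM after RT. Here RT replicate 2 stood out on the high side, and the groups did not overlap. CSRNP1 rose by a log2 fold change of 0.87 (SE 0.12), edgeR adjusted p = 0.033.

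EGR1, a transcription factor gene that serum and growth factors induce within minutes, was among the most abundant members. Its controls held 326, 382 and 804 CPM and its RT libraries 840.1, 883 and 1166 CPM. Control replicate 3 was far above the other controls and only just below the lowest RT library, and RT replicate 3 was likewise the highest of its group. The log2 fold change was 0.93 (SE 0.27) without the block, edgeR adjusted p = 0.52, and 1.03 (SE 0.086) in the blocked fit, edgeR adjusted p = 5.1e-08. Without Control replicate 3, EGR1 and FOS were altered in the fit without the block.

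The promoter of EGR1 is shown because EGR1 rose in the blocked fit and its promoter holds a known kind of element for fast induction, the CArG box that binds SRF. The sequence is from RefSeq, build GRCh38.p14, chr5:138465229-138465528 on the plus strand, which runs from 250 bases before to 50 after the gene's start, and the capitals mark CArG boxes at -105 to -96 and at -83 to -74. Each box reads as a match on both strands.
EGR1: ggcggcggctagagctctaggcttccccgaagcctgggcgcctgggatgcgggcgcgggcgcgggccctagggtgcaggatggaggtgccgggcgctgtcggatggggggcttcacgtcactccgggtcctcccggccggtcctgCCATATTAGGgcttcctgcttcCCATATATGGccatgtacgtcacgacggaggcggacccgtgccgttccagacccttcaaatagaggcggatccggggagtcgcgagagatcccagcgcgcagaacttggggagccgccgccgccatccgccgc
A CArG box occurred in 1.285 percent of 27305 promoters of that length, in 1.004 percent of the 10758 matched promoters of tested genes, and in 1.626 percent of the 123 matched promoters of genes higher in the blocked fit. These are 2 of the 123 promoters, and among the 83 matched promoters of lower genes the box was in 3 (3.614 percent).

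FOS, a subunit of the transcription factor AP-1, had 11.2, 11.9 and 27.7 CPM in controls and 25.5, 25.0 and 41.3 CPM after RT. Control replicate 3 lay above RT replicates 1 and 2, so the groups overlapped, although each RT library was above the control of its own number. FOS did not pass without the block (log2 fold change 0.86 (SE 0.31), edgeR adjusted p = 0.73) and rose in the blocked fit (0.91 (SE 0.10), edgeR adjusted p = 4.7e-06). FOSB overlapped as well, its control replicate 3 lying above RT replicate 1 only, with 1.50, 2.57 and 4.63 CPM in controls and 4.12, 6.63 and 8.12 CPM after RT. Its blocked log2 fold change was 1.16 (SE 0.19), edgeR adjusted p = 6.3e-04, and its reads cannot be told apart from those of ERCC1, which lies on the opposite strand, because the strand setting is not given. FOSL1, a further AP-1 subunit with 333, 430.4 and 252 CPM in controls and 462, 548 and 354 CPM after RT, rose in the blocked fit by 0.44 (SE 0.042), edgeR adjusted p = 4.5e-07. In FOSL1 the groups overlapped, and replicate 3 was lowest on both sides.

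JUN, the other main subunit of AP-1, had 102, 136 and 119 CPM in controls and 176, 181 and 149 CPM after RT. All RT libraries were above all controls. JUN rose in the blocked fit by 0.51 (SE 0.063), edgeR adjusted p = 1.9e-05, and did not pass without it, adjusted p = 0.19. RHOB, an early-response gene for a small GTPase, had 25.3, 38.4 and 32.3 CPM in controls and 51.7, 55.9 and 49.0 CPM after RT. Its groups were well separated, with the lowest RT library above the highest control by more than either group's standard deviation. RHOB rose in the blocked fit by 0.72 (SE 0.081), edgeR adjusted p = 4.4e-06.

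SNAI1, the gene of the Snail repressor of E-cadherin, was low in all libraries, at 2.30, 1.48 and 1.52 CPM in controls and 4.51, 4.23 and 4.03 CPM after RT. The RT libraries were close together and clear of the controls. It rose in the blocked fit by 1.27 (SE 0.22), edgeR adjusted p = 0.0017. The remaining members that rose with the block were EGR2, IER2, IER3, IER5, KLF6, TRIB1 and ZFP36, with log2 fold changes from 0.23 (IER5) to 0.78 (EGR2). Among these, IER2, IER3 and EGR2 did not overlap between the groups, while IER5, KLF6, TRIB1 and ZFP36 did.

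BTG2, an antiproliferative gene that p53 and growth factors both induce, was the member that fell. It had 12.6, 10.9 and 18.3 CPM in controls and 9.19, 8.88 and 11.1 CPM after RT, and RT replicate 3 was slightly above control replicate 2. BTG2 fell by 0.50 on the log2 scale in the blocked fit, edgeR adjusted p = 0.023. MYC, which many growth signals induce, had a log2 fold change of 0.058 with a 95% interval of -0.10 to 0.21.

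Feedback inhibitors of MAP kinase signalling are themselves targets of that pathway. Of 16 listed genes, 15 were tested, 14 had a log2 fold change over 0, and the median was 0.25. DUSP2 alone rose without the block, and DUSP2, DUSP4, DUSP6, ERRFI1, SPRED2 and SPRY2 rose with it. By library, the list's median deviation was -0.047, -0.011 and -0.36 in the controls and 0.24, 0.25 and -0.15 after RT, so replicate 3 was lowest in both groups.

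DUSP2, a nuclear phosphatase that inactivates MAP kinases (ENSG00000158050, chromosome 2), had the smallest p of the altered genes. The control libraries stood at 24.9, 32.3 and 36.6 CPM and the RT libraries at 70.0, 71.8 and 68.0 CPM. The RT libraries were nearly equal, the controls varied more, and the lowest RT library was far above the highest control. The means were 31.3 ± 5.91 CPM (SD, n = 3) in controls and 69.9 ± 1.91 CPM (SD, n = 3) after RT. DUSP2 rose by a log2 fold change of 1.16 (SE 0.12), 95% interval 0.91 to 1.42, edgeR adjusted p = 0.0054. It was the gene still altered without Control replicate 1 or 2, and it was not altered without RT replicate 2.

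The promoter of DUSP2 is shown because it had the smallest p of the altered genes and EGR1 and EGR2 rose beside it in the blocked fit. It is taken from RefSeq, build GRCh38.p14, chr2:96145391-96145690 on the minus strand, and the capitals mark the EGR motif GCGGGGGCG at -103 to -95.
DUSP2: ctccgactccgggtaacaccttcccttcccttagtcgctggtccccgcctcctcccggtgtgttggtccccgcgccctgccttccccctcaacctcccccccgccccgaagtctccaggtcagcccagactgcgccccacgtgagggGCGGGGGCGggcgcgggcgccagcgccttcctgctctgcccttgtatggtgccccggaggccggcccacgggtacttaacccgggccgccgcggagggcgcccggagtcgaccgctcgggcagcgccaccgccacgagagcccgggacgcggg
This motif, searched on both strands, was in 5.025 percent of all promoters, 8.357 percent of those of tested genes, 7.317 percent of those of genes higher in the blocked fit and 7.229 percent of those of lower genes.

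DUSP6, the phosphatase of ERK, had 166, 186 and 152 CPM in controls and 254, 224 and 169.7 CPM after RT. RT replicate 3 lay among the controls, whereas RT replicates 1 and 2 were above them. It rose in the blocked fit by 0.35 (SE 0.059), edgeR adjusted p = 0.0012. SPRY2, an inhibitor of receptor tyrosine kinase signalling, had 17.5, 17.7 and 13.0 CPM in controls and 24.6, 30.8 and 18.6 CPM after RT, with no overlap. Its blocked log2 fold change was 0.61 (SE 0.094), edgeR adjusted p = 3.6e-04. DUSP1, a heat- and stress-induced phosphatase of the same list, went the other way in value, at -0.22 with a 95% interval of -0.43 to -0.013, and it did not pass in either fit.

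CTGF was the YAP/TEAD target that rose without the block, while the median of the list was near 0. YAP and its partner TEAD are the transcription effectors of the Hippo pathway, which responds to cell contact and tension. Of 23 genes tested, 11 had a log2 fold change over 0 and the median was -0.0018, a value whose sign turned to positive (0.00016) with RLE size factors. In the blocked fit CTGF and CYR61 rose and NUAK2 and IGFBP3 fell. In 5 of the 23 every RT library was above every control, and in 1 below, beside 5.45 and 5.66 percent of all tested genes.

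CTGF, a secreted matricellular protein now named CCN2 (ENSG00000118523, chromosome 6), had 7.05, 10.3 and 10.4 CPM in controls and 17.7, 27.0 and 23.1 CPM after RT. Replicate 1 was lowest in both groups, and the lowest RT library was well above the highest control. The means were 9.27 ± 1.92 CPM (SD, n = 3) and 22.6 ± 4.69 CPM (SD, n = 3). CTGF rose by a log2 fold change of 1.29 (SE 0.18), 95% interval 0.89 to 1.70, edgeR adjusted p = 0.033, and it was not altered without Control replicate 1, Control replicate 2, RT replicate 2 or RT replicate 3. An antisense gene, AL133346.1, overlaps it, and the strand setting of the counting is not given.

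The CTGF promoter is shown because the gene is altered and is known for its TEAD sites. It is listed as CCN2 in RefSeq, build GRCh38.p14, chr6:131951323-131951622 on the minus strand. The capitals mark the TEAD motif GGAATG at -169 to -164, -104 to -99 and -95 to -90, and also a kappaB motif at -95 to -86 on the other strand that overlaps the last of these.
CCN2: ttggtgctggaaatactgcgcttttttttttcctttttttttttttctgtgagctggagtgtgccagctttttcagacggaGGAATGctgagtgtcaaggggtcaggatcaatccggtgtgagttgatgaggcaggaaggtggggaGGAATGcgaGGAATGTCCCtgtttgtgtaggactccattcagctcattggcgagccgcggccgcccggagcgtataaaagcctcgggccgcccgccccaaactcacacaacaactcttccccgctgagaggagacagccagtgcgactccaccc
GGAATG on either strand was in 14.05 percent of all promoters, 10.85 percent of those of tested genes, 14.63 percent of those of the higher genes and 7.229 percent of those of the lower genes.

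CYR61, a close relative of CTGF now named CCN1, was far more abundant, at 878, 875 and 845 CPM in controls and 1221, 966 and 916 CPM after RT. The RT libraries were all above the controls, but RT replicates 2 and 3 only slightly. CYR61 rose in the blocked fit by 0.25 (SE 0.052), edgeR adjusted p = 0.0096. NUAK2, a kinase of the AMPK family, had 47.8, 48.6 and 48.6 CPM in controls and 40.9, 34.5 and 30.5 CPM after RT. Its controls were nearly equal and all RT libraries were below them. NUAK2 fell by 0.46 on the log2 scale in the blocked fit, edgeR adjusted p = 0.001. ANKRD1, a further classical target, had -0.037 with a 95% interval of -1.01 to 0.93.

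NF-kappaB targets mostly did not pass. Of 19 genes tested, 12 had a log2 fold change over 0 with a median of 0.084, and NFKBIZ, NFKBIA and IRF1 rose in the blocked fit. NFKBIZ, an atypical IkappaB protein in the nucleus, had 4.17, 5.76 and 6.27 CPM in controls and 10.2, 16.4 and 9.70 CPM after RT. RT replicate 2 stood above the other RT libraries, and the groups did not overlap. Its log2 fold change was 1.17 (SE 0.23) without the block, edgeR adjusted p = 0.14, and 1.15 (SE 0.15) with it, edgeR adjusted p = 4.0e-05. NFKBIA, which encodes the inhibitor IkappaB-alpha, had 62.9, 53.9 and 53.3 CPM in controls and 74.4, 99.8 and 77.4 CPM after RT. The lowest RT library was above the highest control, and NFKBIA rose in the blocked fit by 0.56 (SE 0.079), edgeR adjusted p = 1.1e-04.

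Secreted signals follow. Of 24 listed chemokines, cytokines and growth factors, 18 were tested, 16 had a log2 fold change over 0, and the median was 0.37. None passed an adjusted p under 0.05 without the block, and CXCL2, CSF2, IL6, IL1A, HBEGF, TGFA, EREG and LIF rose with it. The list's median deviation was -0.20, 0.12 and -0.41 in the controls and 0.35, 0.44 and -0.21 in the RT libraries, so RT replicate 3 was below control replicates 1 and 2.

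CXCL2, a chemokine that attracts neutrophils, was low, at 0.641, 1.03 and 1.41 CPM in controls and 2.93, 3.24 and 3.11 CPM after RT, from 12, 18 and 24 counts and 52, 62 and 57 counts. All RT libraries were above all controls and close together. CXCL2 rose in the blocked fit by 1.61 (SE 0.28), edgeR adjusted p = 0.0016, against an adjusted p of 0.10 without the block. IL6, a cytokine of the acute phase, had 3.10, 4.39 and 2.11 CPM in controls and 5.19, 8.98 and 3.98 CPM after RT. Control replicate 2 lay above RT replicate 3, so the groups overlapped, and the blocked log2 fold change was 0.91 (SE 0.17), edgeR adjusted p = 0.0045. The EGFR ligand genes HBEGF, TGFA and EREG rose with the block by 0.39, 0.27 and 0.34. In all of them the groups overlapped, and replicate 3 was lowest in both groups.

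The promoters of CXCL2 and NFKBIZ are shown because both genes were altered in the blocked fit and both hold a kappaB motif, the element bound by NF-kappaB, in capitals. Both are from RefSeq, build GRCh38.p14, CXCL2 at chr4:74099146-74099445 on the minus strand and NFKBIZ at chr3:101827740-101828039 on the plus strand. In CXCL2 the motif lies at -78 to -69 and, overlapping it on the other strand, at -77 to -68, and in NFKBIZ it lies at -223 to -214.
CXCL2: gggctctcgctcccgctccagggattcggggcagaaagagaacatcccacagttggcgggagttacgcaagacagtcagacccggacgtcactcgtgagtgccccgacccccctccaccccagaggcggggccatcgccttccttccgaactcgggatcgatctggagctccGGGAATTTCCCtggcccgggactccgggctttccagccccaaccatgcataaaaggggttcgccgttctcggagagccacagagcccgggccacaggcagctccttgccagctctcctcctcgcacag
NFKBIZ: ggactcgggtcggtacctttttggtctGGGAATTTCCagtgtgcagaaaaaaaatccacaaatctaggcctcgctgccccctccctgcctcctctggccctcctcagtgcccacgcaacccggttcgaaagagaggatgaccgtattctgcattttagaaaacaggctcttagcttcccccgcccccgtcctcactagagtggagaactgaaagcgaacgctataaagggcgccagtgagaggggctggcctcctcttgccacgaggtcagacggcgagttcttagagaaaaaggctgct
The kappaB motif was in 5.721 percent of all promoters, 6.674 percent of those of tested genes, 10.57 percent of those of the higher genes and 3.614 percent of those of the lower genes. The AP-1 motif TGANTCA was in 7.764, 4.815, 4.878 and 6.024 percent of the same groups of promoters, in that order, and the cyclic AMP response element TGACGTCA in 1.978, 3.309, 2.439 and 1.205 percent. Promoters were matched by name for 123 of the 185 higher and 83 of the 103 lower genes.

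Among listed p53 targets, GADD45A and PLK2 rose, while the classical targets CDKN1A and MDM2 did not pass. Whether p53 had a part in their rise was not tested. Of 32 listed p53 targets, 31 were tested, 18 had a log2 fold change over 0, and the median was 0.038. GADD45A and PLK2 rose without the block, and AEN joined them with it, while BTG2 fell. In 2 of 31 members every RT library was above every control, and in 1 below, beside 5.45 and 5.66 percent of all tested genes.

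GADD45A, a growth arrest gene induced by DNA damage and by other stresses (ENSG00000116717), had 50.9, 72.1 and 64.6 CPM in controls and 99.1, 141 and 116 CPM after RT. The order of the replicates was the same in both groups, and the lowest RT library was clearly above the highest control. GADD45A rose by 0.93 (SE 0.14), 95% interval 0.62 to 1.23, edgeR adjusted p = 0.049, and had the smallest adjusted p of all genes in the blocked fit, 1.7e-10. PLK2, a polo-like kinase that serum and p53 both induce, had 191, 215 and 201 CPM in controls and 286, 302 and 262 CPM after RT. Its groups were separated, with RT replicate 3 lowest after RT. PLK2 rose by 0.49 (SE 0.066), edgeR adjusted p = 0.033.

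CDKN1A, which encodes the cell cycle inhibitor p21, had 112, 104 and 98.5 CPM in controls and 132, 113 and 92.2 CPM after RT. The groups overlapped, with RT replicate 1 highest and RT replicate 3 lowest of all 6. Its log2 fold change was 0.10, 95% interval -0.14 to 0.33. MDM2, the ubiquitin ligase that limits p53, had 74.0, 85.3 and 75.5 CPM in controls and 75.3, 76.4 and 71.5 CPM after RT, a log2 fold change of -0.072 with a 95% interval of -0.23 to 0.082. The upper ends of both intervals are well under a log2 fold change of 1.

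Genes of DNA damage sensing and repair of DNA breaks were near their control levels. Of 26 genes, all were tested and 17 had a log2 fold change over 0, with a median of 0.017. edgeR called 0 of them at an adjusted p under 0.05 in either fit, and the whole comparison had 834 genes at an unadjusted p under 0.05 and 10 altered genes with DESeq2. The members with the smallest p were RNF168 at -0.26, LIG4 at 0.28, MDC1 at 0.20 and RAD52 at -0.32. RNF168, a ubiquitin ligase that marks chromatin at breaks, had 46.7, 42.4 and 50.6 CPM in controls and 35.6, 40.8 and 39.9 CPM after RT, with all RT libraries below all controls and a blocked edgeR adjusted p of 0.063.

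Cell cycle genes moved little. Among 37 genes of G2 and mitosis, 10 had a log2 fold change over 0, the median was -0.019, and WEE1 fell in the blocked fit. WEE1, the kinase that holds CDK1 inactive before mitosis, had 35.1, 35.1 and 39.7 CPM in controls and 25.1, 29.1 and 34.6 CPM after RT. RT replicate 3 was close below the controls and RT replicate 1 farthest from them. WEE1 fell by 0.31 on the log2 scale, edgeR adjusted p = 0.028. Among 20 genes of G1/S and replication, log2 fold changes ran from -0.084 to 0.099, and the median was 0.0036. PCNA, the sliding clamp of replication, was at 345, 312 and 329 CPM in controls and 333, 341 and 357 CPM after RT, which overlap.

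**Figure D3:**
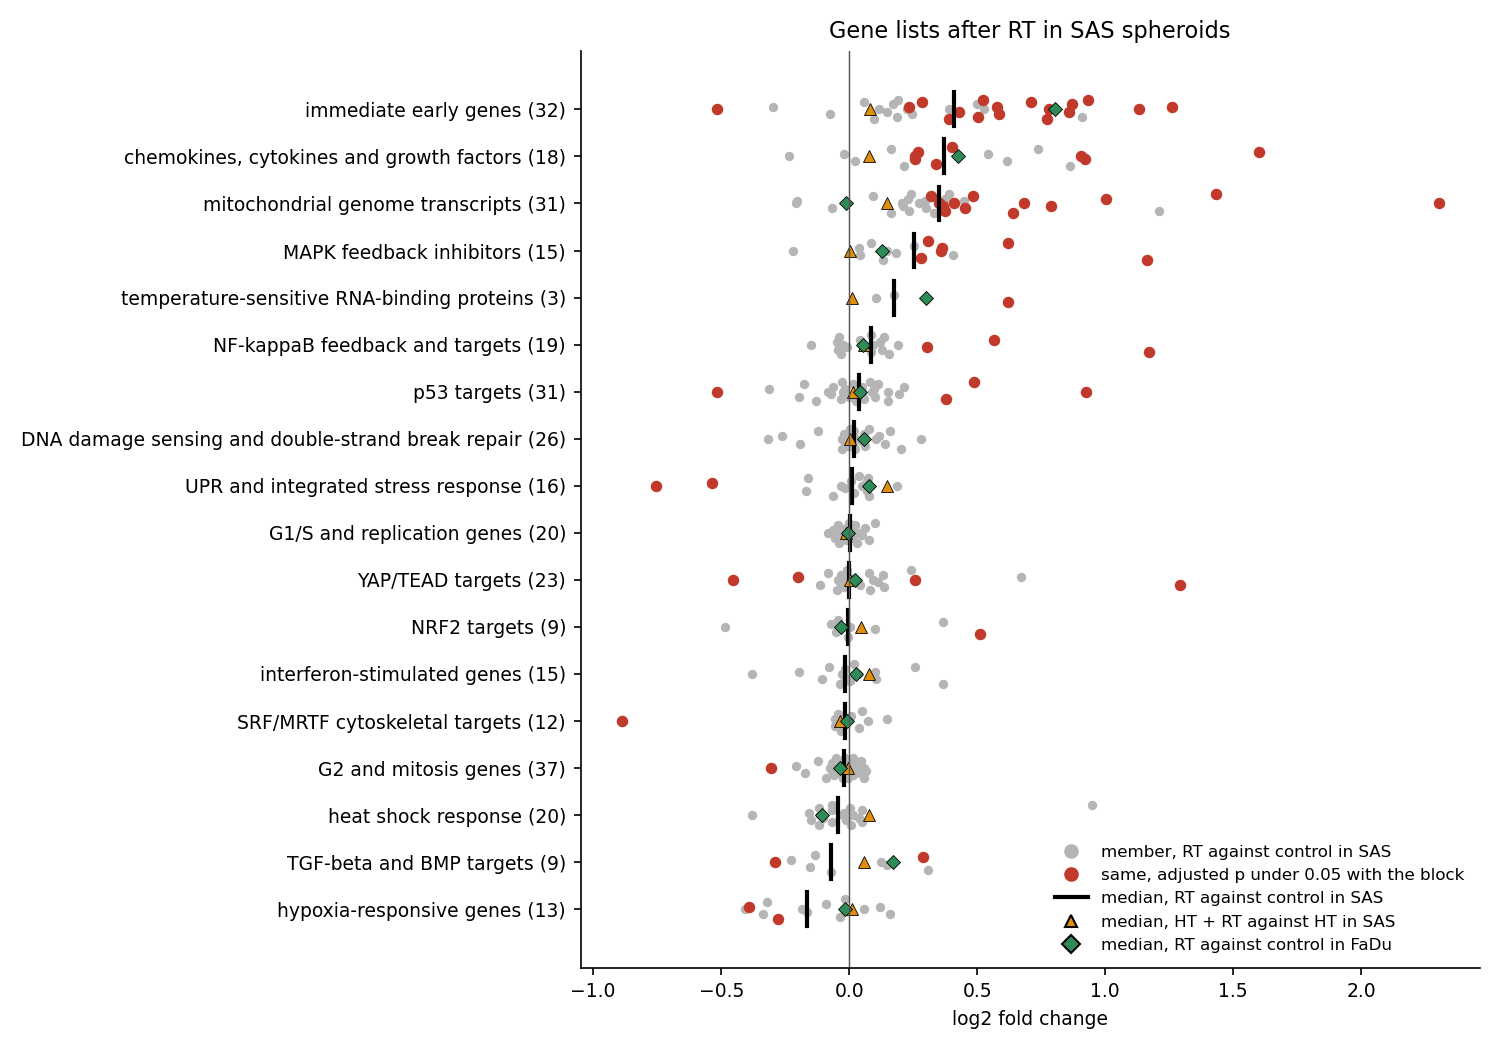
Log2 fold changes (horizontal axis) of the tested members of 17 gene lists and of the mitochondrial genome, with the number tested in parentheses. Points are genes for RT against control in SAS spheroids, red where the blocked fit gave an adjusted p under 0.05, and the black bar is the list's median. Triangles and diamonds give the list's median for HT + RT against HT in SAS and for RT against control in FaDu. Immediate early genes lie highest, with a median of 0.41, and hypoxia-responsive genes lowest, at -0.17.

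Genes of RNA processing are described next. SRSF5, an SR protein of pre-mRNA splicing, was on the list of temperature-sensitive RNA-binding proteins. It had 145, 159 and 162 CPM in controls and 247, 233 and 235 CPM after RT. The libraries of each group lay close together, with a wide gap between the groups. SRSF5 rose by 0.62 (SE 0.060), 95% interval 0.49 to 0.75, edgeR adjusted p = 0.0054.

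CIRBP and RBM3, the cold-inducible members of the same list, had every RT library above every control without passing in either fit. All 3 members of the list, with SRSF5, were separated in this way, as were 5.45 percent of all tested genes. The list was chosen with earlier results of these data known, so this share is not independent evidence. CIRBP was at 117, 121 and 139.7 CPM in controls and 139.9, 140.1 and 145 CPM after RT, a log2 fold change of 0.17 with a 95% interval of 0.014 to 0.33. RBM3 was at 192, 189 and 189 CPM and 199, 200.0 and 215 CPM, a log2 fold change of 0.10 with a 95% interval of -0.013 to 0.22. For RT in FaDu all 3 members were over 0, with a median of 0.30. RBM3 and SRSF5 rose in the FaDu blocked fit by 0.30 and 0.78, where 207 of all 15552 genes rose, and CIRBP did not pass. For HT + RT against HT in SAS, 2 of 3 were over 0, with a median of 0.011. The time at room temperature during RT was not recorded in the labels, and its part in these values was not tested.

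SRSF6, CCNL1, CLK1 and RSRP1 were chosen after their values were seen, and SRSF6 and CCNL1 rose while CLK1 and RSRP1 fell in the blocked fit. SRSF6 had 219, 252 and 246 CPM in controls and 312, 349 and 313 CPM after RT and rose in the blocked fit by 0.44 (SE 0.044), edgeR adjusted p = 6.0e-07. CCNL1, a cyclin tied to splicing, had 66.9, 89.2 and 91.2 CPM in controls and 114, 144 and 126 CPM after RT, a blocked log2 fold change of 0.64 (SE 0.057), edgeR adjusted p = 1.0e-07. Both were separated between the groups. CLK1, a kinase that phosphorylates SR proteins, went down, from 35.8, 42.0 and 43.4 CPM in controls to 24.4, 28.5 and 27.9 CPM after RT. All RT libraries lay below all controls, and CLK1 fell by 0.59 on the log2 scale in the blocked fit, edgeR adjusted p = 2.0e-05. RSRP1, an arginine- and serine-rich protein gene, fell by 0.66, edgeR adjusted p = 4.6e-04. Over all 11 SRSF genes tested, 8 were over 0, the median was 0.058, and 2 rose in the blocked fit, so most of the family did not pass.

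Small nucleolar RNA host genes (SNHG genes) carry small nucleolar RNAs in their introns, and their spliced transcripts are short-lived in general. This family was chosen after its values were seen. Of 20 tested, 16 had a log2 fold change over 0, the median was 0.18, 6 rose in the blocked fit, and 10 had every RT library above every control, beside 5.45 percent of all tested genes. SNHG26 had 8.01, 8.72 and 9.14 CPM in controls and 14.5, 15.7 and 17.7 CPM after RT. The RT libraries were all well above the controls, and SNHG26 rose without the block by 0.89 (SE 0.12), edgeR adjusted p = 0.033. SNHG1 was the most abundant of the 6, at 74.8, 94.2 and 91.3 CPM in controls and 124, 144 and 122 CPM after RT. It rose in the blocked fit by 0.59 (SE 0.056), edgeR adjusted p = 4.0e-07, and SNHG12, SNHG15, SNHG3 and SNHG4 rose by 0.67, 0.49, 0.35 and 0.48.

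Small nucleolar and Cajal body RNAs themselves were at very low levels. They took 0.0029, 0.0037 and 0.0038 percent of the counts in control replicates 1, 2 and 3 and 0.0051, 0.0055 and 0.0044 percent in the RT replicates, so every RT library was above every control. Of 15 tested, 11 had a log2 fold change over 0, with a median of 0.69, and SNORD100 and SNORD104 rose in the blocked fit. SNORD104 had 5.56, 6.16 and 6.80 CPM in controls and 14.2, 12.9 and 8.78 CPM after RT. SNORD104 lies inside SNHG25, and SNORD100 lies inside the ribosomal protein gene RPS12, so their reads may come from the host transcript. Whether the higher share reflects unspliced host RNA or the amount of short RNA kept in each library was not tested.

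Zinc finger genes had a median under 0, though few of them passed. This family, named ZNF, ZFP, ZSCAN or ZKSCAN with a number, leaves out ZFP36 and its relatives, which bind RNA and of which ZFP36 and ZFP36L1 rose in the blocked fit. It encodes mainly transcriptional repressors. It was chosen after its values were seen, because it held 8 of the 10 lowest fold changes. Those 10 are among genes with at least 1 log2 CPM, an unadjusted p under 0.01 and no overlap between the groups. Of 413 tested, 282 had a log2 fold change under 0, and the median was -0.12 against -0.0037 over all tested genes. Without the block edgeR called 0 of them, in a comparison with 834 genes at an unadjusted p under 0.05 and 10 altered with DESeq2. In the blocked fit 22 of 413 fell and 1, ZNF639, rose, beside 0.702 and 1.26 percent of all tested genes. Every RT library was below every control in 84 of them (20.3 percent, against 5.66 percent of all tested genes) and above in 13 (3.15 percent, against 5.45 percent). The median deviation of the family was 0.011, 0.075 and 0.074 in control replicates 1, 2 and 3 and -0.050, -0.040 and -0.037 in the RT replicates, so every RT library lay below every control. The family is expressed at a low level, with a median of 2.77 log2 CPM, and all tested genes between 2 and 4 log2 CPM had a median of -0.018.

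ZNF566 and ZFP30 were the members altered with the block. ZNF566 had 4.27, 3.76 and 3.81 CPM in controls and 1.52, 1.72 and 2.62 CPM after RT. RT replicate 3 was the highest of its group and still below every control. ZNF566 fell by 1.02 on the log2 scale in the blocked fit, edgeR adjusted p = 0.017, against an adjusted p of 0.27 without it. ZFP30 had 3.26, 3.42 and 3.46 CPM in controls and 1.80, 2.09 and 1.14 CPM after RT. Its controls were nearly equal, and it fell by 1.01, edgeR adjusted p = 0.027. ZFP30 overlaps ZNF540 on the opposite strand, so its reads cannot be told apart from those of ZNF540.

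Further members among the 10 lowest fold changes within that limit were ZNF2, ZNF112, ZNF250, ZNF572, ZNF823 and ZSCAN22. ZNF2 had 4.70, 4.67 and 4.40 CPM in controls and 2.09, 2.77 and 2.45 CPM after RT and fell in the blocked fit by 0.91, edgeR adjusted p = 0.013. ZNF250 had 6.94, 4.96 and 6.21 CPM in controls and 2.76, 3.29 and 3.87 CPM after RT and fell by 0.86, adjusted p = 0.0099. Both were lower in every RT library than in any control, and the controls of ZNF250 varied more than those of ZNF2. ZNF823 did not pass in either fit, with a blocked adjusted p of 0.07. ZNF141, at a higher level, was chosen after its values were seen. It had 13.9, 12.9 and 12.4 CPM in controls and 7.95, 7.83 and 7.74 CPM after RT, 2 tight groups that did not overlap, and fell by 0.74, edgeR adjusted p = 6.0e-04. The remaining genes among the lowest were RASSF9, which fell by 0.99 in the blocked fit, and ZSWIM3, which fell by 0.96.

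**Figure D4:**
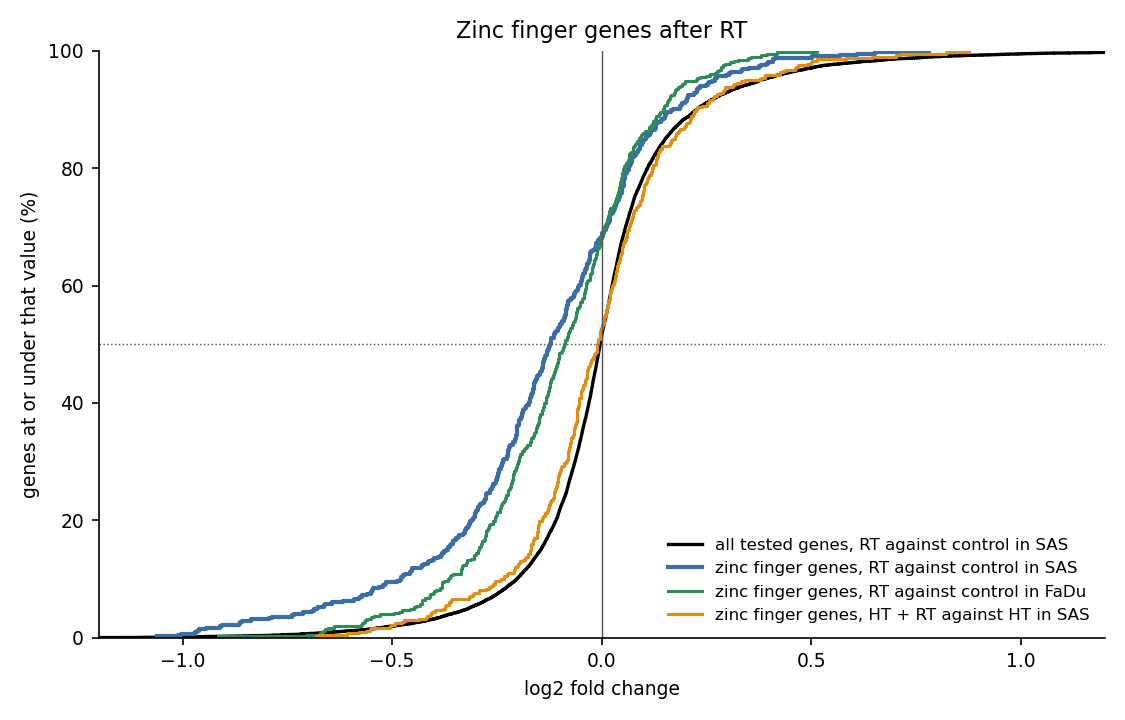
Cumulative share of genes in percent (vertical axis) at or under each log2 fold change (horizontal axis). The black line is all 14680 tested genes and the blue line 413 zinc finger genes for RT against control in SAS, the green line 402 zinc finger genes for RT in FaDu, and the orange line 406 for HT + RT against HT in SAS. The blue and green lines lie to the left of the black line, with medians of -0.12 and -0.089, and the orange line has a median of -0.010.

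Transcripts of the mitochondrial genome had a median over 0, with a wide spread between replicates. Of 35 genes, 31 were tested, 28 had a log2 fold change over 0, and the median was 0.35. MT-TT was the member that passed without the block, and 13 of 31 members rose with it, beside 0.0749 and 1.26 percent of all tested genes. In 7 of the 31, every RT library was above every control, beside 5.45 percent of all tested genes. By library, the list's median deviation was -0.34, -0.21 and 0.067 in control replicates 1, 2 and 3. After RT it was -0.0039, 0.46 and 0.026, so the groups overlapped, and replicate 3 was lower after RT than in its control. The mitochondrial share of all counts was 1.25, 1.45 and 1.72 percent in control replicates 1, 2 and 3 and 1.61, 2.27 and 1.57 percent in the RT replicates. RT replicate 2 had the highest share, and RT replicates 1 and 3 were below control replicate 3, so the groups overlapped. The part of this share in the list's values was not tested.

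MT-TT, the mitochondrial tRNA for threonine (ENSG00000210195), had 0.961, 0.741 and 0.469 CPM in controls and 2.54, 4.595 and 3.71 CPM after RT. These levels rest on 18, 13 and 8 counts in the controls and 45, 88 and 68 counts after RT, and every RT library was above every control. MT-TT rose by 2.30 (SE 0.33), 95% interval 1.58 to 3.02, edgeR adjusted p = 0.033, and it was left untested where at least 10 counts in every library were required. MT-TT stayed altered without RT replicate 1 and not without any other of the 6 libraries. MT-TV, the tRNA for valine, had 4.22, 3.31 and 4.75 CPM in controls and 7.44, 10.4 and 6.65 CPM after RT. It rose in the blocked fit by 0.99 (SE 0.18), edgeR adjusted p = 0.0029. MT-TD, the tRNA for aspartate, had 0.588, 0.627 and 0.762 CPM in controls and 1.07, 2.40 and 1.85 CPM after RT, from 11 to 13 counts and 19 to 46 counts. MT-TD rose in the blocked fit by 1.39 (SE 0.35), edgeR adjusted p = 0.035. The tRNA genes MT-TF, MT-TL1, MT-TN, MT-TC and MT-TY rose in the blocked fit by 0.79, 0.64, 0.45, 0.36 and 0.67. Of these, MT-TF and MT-TL1 did not overlap between the groups, and MT-TN, MT-TC and MT-TY did.

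Among messenger RNAs of the mitochondrial genome, MT-ND1, a subunit of complex I, had 1005, 1254 and 1563 CPM in controls and 1531, 2242 and 1566 CPM after RT. RT replicate 1 lay just below control replicate 3, so the groups overlapped. Its blocked log2 fold change was 0.48 (SE 0.084), edgeR adjusted p = 0.0015. MT-ND2, MT-CO3, MT-ATP6 and MT-ATP8 rose in the blocked fit by 0.31, 0.35, 0.40 and 0.36. MT-CO1, the catalytic subunit of cytochrome oxidase, had a blocked log2 fold change of 0.22, 95% interval 0.071 to 0.37, and did not pass.

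Other stress responses follow. Of 20 heat shock genes tested, 7 had a log2 fold change over 0, the median was -0.044, and the highest value was 0.95. The edgeR test called 0 in either fit, in a comparison with 834 genes at an unadjusted p under 0.05 and 10 altered with DESeq2. HSPA6, at 6 to 31 counts in these libraries, had every RT library above every control, as did 5.45 percent of all tested genes. Its log2 fold change ran from 0.61 to 1.29 over the alternatives. HSPA1A, an inducible Hsp70 gene whose reads may be shared with its copy HSPA1B, was at 184, 168 and 151 CPM in controls and 165, 177 and 112 CPM after RT. RT replicate 3 was the lowest and the others were among the controls. HSPB1, the gene of Hsp27, was at 387, 391 and 415 CPM in controls and 374, 338 and 357 CPM after RT, a log2 fold change of -0.16 with a blocked edgeR adjusted p of 0.06.

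Among 16 genes of the unfolded protein and integrated stress responses, 9 had a log2 fold change over 0, the median was 0.011, and DDIT4 and DNAJB9 fell in the blocked fit. DDIT4, an inhibitor of the growth kinase complex mTORC1 also known as REDD1, had 91.0, 94.3 and 86.3 CPM in controls and 70.0, 43.4 and 47.6 CPM after RT. The controls were close together, and all RT libraries were below them, replicates 2 and 3 by most. DDIT4 fell by 0.78 on the log2 scale, edgeR adjusted p = 3.8e-06 with the block and 0.13 without. DNAJB9, a co-chaperone of the endoplasmic reticulum, had 10.2, 10.1 and 10.6 CPM in controls and 7.95, 6.11 and 7.30 CPM after RT and fell by 0.54, edgeR adjusted p = 0.027. ATF4 and DDIT3, transcription factors of that response, had log2 fold changes of 0.077 and -0.063 and did not pass.

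Hypoxia-responsive genes had the lowest median of the lists, -0.17, with 3 of 13 over 0. BNIP3 and NDRG1 fell in the blocked fit. BNIP3, a mitophagy receptor, had 76.8, 77.5 and 84.2 CPM in controls and 72.0, 54.1 and 70.4 CPM after RT. RT replicate 2 was farthest below, and BNIP3 fell by 0.29 on the log2 scale, edgeR adjusted p = 0.02. NDRG1 had 132, 136 and 281 CPM in controls and 130.2, 79.6 and 209 CPM after RT. Replicate 3 was the highest in both groups by far, the groups overlapped, and NDRG1 fell by 0.40 with the block, edgeR adjusted p = 0.0045. Without Control replicate 3 and with no block, its log2 fold change was 0.063. VEGFA, a secreted factor that low oxygen induces, had 0.12 with a 95% interval of -0.24 to 0.48.

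Targets of interferon, TGF-beta, NRF2 and SRF were read from smaller lists. Of 15 interferon-stimulated genes tested, 7 were over 0, with a median of -0.015, and edgeR called 0 in either fit, beside the 834 genes at an unadjusted p under 0.05 and the 10 altered with DESeq2 in the whole comparison. Of 9 targets of TGF-beta and BMP, 4 were over 0, with a median of -0.073. There SNAI2, the Slug repressor, rose by 0.29 and ID3, an inhibitor of helix-loop-helix factors, fell by 0.30 in the blocked fit. Of 9 NRF2 targets, 4 were over 0, with a median of -0.0034, and SRXN1, a peroxiredoxin repair enzyme, rose by 0.51, with 9.83, 9.29 and 10.6 CPM in controls and 13.6, 14.5 and 14.2 CPM after RT. Of 12 cytoskeletal targets of SRF and MRTF tested, 5 were over 0, with a median of -0.018. FILIP1L, a member of that list that binds filamin A, had 24.7, 22.2 and 49.99 CPM in controls and 14.2, 15.8 and 22.2 CPM after RT. Its control replicate 3 was far above the other controls, and it fell by 0.84 in the blocked fit, edgeR adjusted p = 1.6e-05.

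The highest fold changes belonged mostly to short noncoding or antisense transcripts with few counts. AC112907.3, an antisense gene opposite the translation factor gene EIF4A2 on chromosome 3 (ENSG00000263826), had 2.67, 3.36 and 3.99 CPM in controls and 8.97, 11.2 and 7.80 CPM after RT. All RT libraries were above all controls, replicate 2 by most. It rose by 1.48 (SE 0.20), 95% interval 1.05 to 1.92, edgeR adjusted p = 0.033, and it was not altered without Control replicate 1, Control replicate 2, RT replicate 1 or RT replicate 2. Reads from EIF4A2 cannot be told apart from it, since the strand setting is not given.

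AL731571.1, antisense to CTBP2, had 2.83, 2.96 and 2.40 CPM in controls and 7.22, 5.95 and 3.98 CPM after RT and rose in the blocked fit by 1.05 (SE 0.19), edgeR adjusted p = 0.0021. AC135178.3, opposite the ribosomal protein gene RPL26 and KRBA2, had 6, 5 and 2 counts in controls and 35, 26 and 19 counts after RT. It rose in the blocked fit by 2.57 (SE 0.44), edgeR adjusted p = 0.0015. MIR106B, a microRNA precursor inside the replication gene MCM7, had 2, 3 and 2 counts in controls and 17, 25 and 14 counts after RT. MIR106B rose in the blocked fit by 2.88 (SE 0.54), edgeR adjusted p = 0.0033. Its host MCM7 did not pass, at 926, 915 and 876 CPM in controls and 939, 971 and 901 CPM after RT, and reads of the host transcript cannot be told apart from the precursor. MIR221, inside MIR222HG, had 11, 13 and 9 counts in controls and 43, 43 and 12 counts after RT. RT replicate 3 was level with the controls, and MIR221 rose in the blocked fit by 1.46 (SE 0.37), edgeR adjusted p = 0.038.

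The other noncoding genes altered with the block were AC012615.6, AC037198.2, AC105046.1, AC130650.2, AP001486.2, RN7SL832P and STARD13-AS. Each had fewer than 4 CPM in every library, and their blocked log2 fold changes ran from 1.204 (AC012615.6) to 2.30 (RN7SL832P). AC037198.2 lies opposite THBS1, which itself rose. RGS16, a regulator of G protein signalling and the remaining protein-coding gene altered with the block, had 2.14, 1.94 and 0.821 CPM in controls and 4.23, 3.55 and 2.02 CPM after RT. Its control replicates 1 and 2 and RT replicate 3 lay close together, so the groups overlapped, and it rose by 1.01 (SE 0.24), edgeR adjusted p = 0.024. AC027290.2, among the 10 highest, rose in the blocked fit by 0.97 and overlaps VPS37B.

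The study's list for this comparison holds 10 genes, and all 10 were found by name: AC112907.3, AC135178.3, AL731571.1, CTGF, CXCL2, DUSP2, MT-TT, MT-TV, NFKBIZ and SNAI1. In the blocked fit MT-TV stood at a log2 fold change of 0.99 and the others were altered. The list was chosen on these same samples, so it is not independent evidence of their direction.

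Genes called higher were most frequent among short genes, while genes called lower did not follow gene length. Among the 3662 tested genes with the shortest span in the annotation (median 4.07 kb), the blocked fit called 97 higher and 13 lower. Among the 3660 next in length (median 17.0 kb) it called 38 higher and 42 lower. Among the 3659 after these (median 43.3 kb) it called 27 higher and 22 lower. Among the 3660 with the longest span (median 127 kb), it called 23 higher and 26 lower. Of all tested genes, 1.26 percent rose and 0.702 percent fell in that fit. The median log2 fold changes of all genes in the shortest and longest groups were -0.0030 and 0.0048. Their median levels were 2.52 and 4.74 log2 CPM, and the part of level in these counts was not tested. By gene type, 18 mitochondrial tRNA genes had a median of 0.42, 709 antisense genes 0.046, 527 long intergenic noncoding genes 0.0098 and 12393 protein-coding genes -0.0063.

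Other genes called by the blocked fit, chosen after their values were seen, belong to none of the lists. SOWAHC, an ankyrin repeat protein gene, had 134, 143 and 138 CPM in controls and 182, 201 and 198 CPM after RT. Both groups were tight and did not overlap, and SOWAHC rose without the block by 0.48 (SE 0.059), edgeR adjusted p = 0.025. SOCS3, a feedback inhibitor of cytokine signalling, had 37.7, 38.4 and 26.3 CPM in controls and 67.3, 64.0 and 41.7 CPM after RT. Replicate 3 was lowest in both groups, and SOCS3 rose in the blocked fit by 0.75 (SE 0.066), edgeR adjusted p = 1.0e-07. ZFP36L1, which directs decay of AU-rich messenger RNAs, had 99.8, 146 and 133 CPM in controls and 174, 196 and 175 CPM after RT and rose by 0.54 (SE 0.060), edgeR adjusted p = 4.1e-06. THBS1, the matrix protein thrombospondin, had 989, 983 and 940.0 CPM in controls and 1320.2, 1403 and 1086 CPM after RT. All RT libraries were above all controls, replicate 3 least, and THBS1 rose by 0.38 (SE 0.047), edgeR adjusted p = 1.8e-05.

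Translation factor genes EIF4A1 and EIF5 were also separated between the groups. EIF4A1, the helicase of cap-dependent initiation, had 34.0, 37.1 and 37.7 CPM in controls and 54.6, 52.2 and 44.1 CPM after RT and rose by 0.47 (SE 0.077), edgeR adjusted p = 7.4e-04. EIF5 had 366, 402 and 394 CPM in controls and 442, 488 and 482 CPM after RT and rose by 0.28 (SE 0.040), edgeR adjusted p = 1.3e-04. Both genes host small nucleolar RNAs in their introns. CCDC85B and TNS4, whose groups overlapped, rose by 0.56 and 0.43 in the blocked fit, and each replicate number was higher after RT than in its control.

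On the lower side, CDKN1B, which encodes the cell cycle inhibitor p27, had 24.6, 18.6 and 29.1 CPM in controls and 13.4, 13.4 and 17.6 CPM after RT. RT replicate 3 was the highest of its group and just below control replicate 2. CDKN1B fell by 0.70 on the log2 scale in the blocked fit, edgeR adjusted p = 9.4e-05. TOB2, an antiproliferative relative of BTG2, had 51.4, 47.8 and 55.2 CPM in controls and 36.9, 33.1 and 38.5 CPM after RT. Its groups were clearly apart, and TOB2 fell by 0.51, edgeR adjusted p = 2.9e-05. NABP1, which encodes a protein that binds single-stranded DNA, had 44.1, 54.6 and 39.0 CPM in controls and 32.4, 33.6 and 24.4 CPM after RT and fell by 0.61, edgeR adjusted p = 1.4e-05.

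The genes called in SAS spheroids were then read in libraries that this comparison did not use. In FaDu spheroids, which received 7 Gy, 171 of the 185 higher genes were tested, and 152 of them (88.9 percent) had a log2 fold change over 0, against 48.9 percent of all genes tested in both. There 79 passed the adjusted p of a blocked fit upward and 2 downward. Of the 103 lower genes, 102 were tested in FaDu, 8 (7.84 percent) were over 0, and 28 passed downward. Of all 13584 genes tested in both, 202 passed upward and 101 downward. The FaDu comparison by itself had 28 genes altered in its blocked fit (0.18 percent) and 1 without the block. At the adjusted p alone, it had 207 higher and 105 lower genes with the block, and 5 higher and 0 lower without it.

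The same genes were read in SAS spheroids heated before RT. For HT + RT against HT, 182 of the 185 higher genes were tested, 147 (80.8 percent) were over 0, against 49.0 percent of all 14420 genes tested in both, and their median log2 fold change was 0.11. There 30 of them passed a blocked adjusted p upward. Of the 103 lower genes, 37 (35.9 percent) were over 0, and 4 passed downward. Of the 14420 genes, 125 passed upward and 11 downward. That comparison called 0 altered genes with edgeR, with 673 (4.39 percent) at an unadjusted p under 0.05 and 5 altered with DESeq2. In the blocked fit it called 7 altered (0.0456 percent). At the adjusted p alone, edgeR had 127 higher and 12 lower genes with the block, and 0 higher and 0 lower without it.

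**Figure D5:**
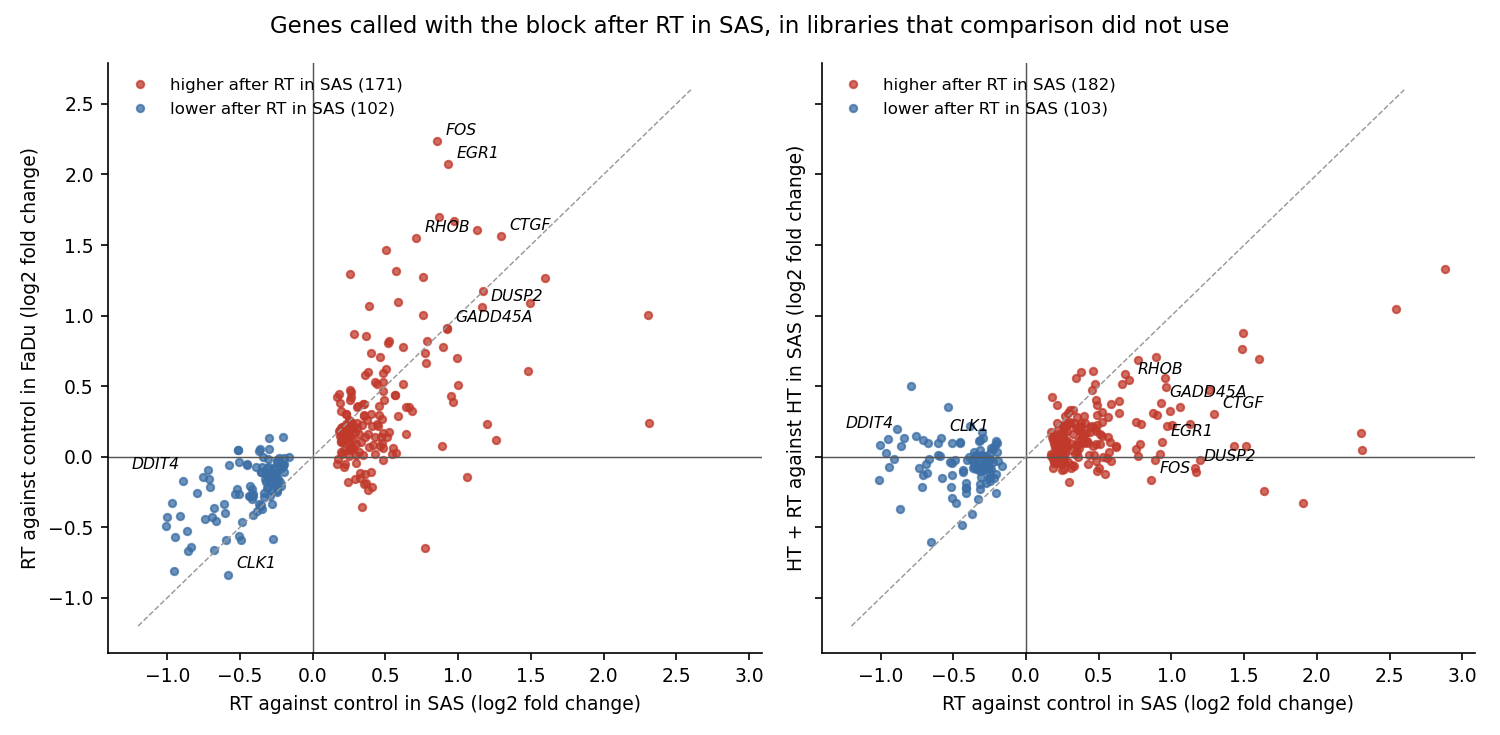
Log2 fold changes of the genes called in the blocked fit of RT against control in SAS, from the fits without the block. The horizontal axis is RT against control in SAS, and the vertical axes are RT against control in FaDu on the left and HT + RT against HT in SAS on the right. Red genes were higher and blue genes lower in SAS, and the dashed line marks equal values. On the left, 152 of 171 red genes and 8 of 102 blue genes lie above 0, and on the right 147 of 182 and 37 of 103 do.

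Differences between the responses were tested by interaction terms. Between heated and unheated SAS spheroids, 1 gene differed at the altered thresholds, DUSP2. It had 212, 232 and 183 CPM in the HT libraries and 197, 214 and 185 CPM in the HT + RT libraries, groups that overlap. The response after heat minus the response without heat was -1.25 (SE 0.15) on the log2 scale, edgeR adjusted p = 0.01. The count of 1 became 2 without Control replicate 3, 2 without RT replicate 1 and 0 without RT replicate 2, where 546 genes were at an unadjusted p under 0.05 and DESeq2 on all libraries called 3. With the block, 5 genes were altered, AC121338.2 at -3.49, MT-TT at -2.14, NFKBIZ at -1.27, DUSP2 at -1.25 and, in the other direction, FILIP1L at 1.06. Under the fold threshold, DDIT4, which was at 0.15 after heat, differed by 0.91 (SE 0.14), adjusted p = 0.0027. CLK1 differed by 0.72 (SE 0.077) with the block, adjusted p = 6.2e-05, CTGF by -0.98 (SE 0.14), adjusted p = 0.001, and SOCS3 by -0.68 (SE 0.085), adjusted p = 5.3e-04. SRSF5 differed by -0.56 (SE 0.086) with the block, edgeR adjusted p = 0.0032.

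Between SAS and FaDu spheroids, edgeR called 0 genes altered for the difference in response, with 460 (2.74 percent) at an unadjusted p under 0.05. DESeq2 called 1 altered. PIM1, a survival kinase gene chosen after its values were seen, passed the adjusted p without the fold threshold. In SAS it was at 140.3, 145 and 147 CPM in controls and 158, 146 and 162 CPM after RT, and in FaDu at 16.8, 17.5 and 15.0 CPM in controls and 29.3, 28.6 and 29.2 CPM after RT. The SAS groups overlapped and the FaDu groups did not, and the difference in log2 fold change was -0.72 (SE 0.093), edgeR adjusted p = 0.032. With the block, CYR61 and DUSP1 were altered, both with a lower response in SAS. CYR61 differed by -1.04 (SE 0.094), adjusted p = 5.8e-07, and DUSP1 by -1.99 (SE 0.26), adjusted p = 3.0e-04. SOX9 and TNS4, both higher after RT in SAS, differed the other way by 0.71 and 0.41, adjusted p = 5.6e-04 and 0.0086. The dose was 10 Gy in SAS and 7 Gy in FaDu, so spheroid type and dose cannot be told apart.

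The lists were read in the same way in these other libraries. Immediate early genes had a median of 0.80 for RT in FaDu and 0.081 for HT + RT against HT in SAS, beside 0.41 for RT in SAS. Their fold changes in FaDu were 2.07 for EGR1, 2.24 for FOS and 1.47 for JUN, and the interaction did not pass for any of these, with blocked adjusted p of 0.61, 0.86 and 0.13. Mitochondrial genome transcripts had a median of -0.012 in FaDu and 0.15 for HT + RT against HT, beside 0.35. Zinc finger genes had a median of -0.089 in FaDu, where 274 of 402 were under 0, and -0.010 for HT + RT against HT. In the blocked fits 25 of 402 fell and 1 rose in FaDu, and 1 of 406 fell and 4 rose for HT + RT against HT. Of all 15552 genes tested in FaDu, the blocked fit called 105 lower and 207 higher. For HT + RT against HT it called 12 lower and 127 higher of 15341. Without the block, 0 genes fell and 5 rose in FaDu at an adjusted p under 0.05, and 0 passed for HT + RT against HT. SNHG genes had a median of 0.078 in FaDu and 0.14 for HT + RT against HT. In the blocked fits 4 of 19 and 5 of 20 members rose, beside the same counts of all genes with and without the block. Whether these list medians differ between the comparisons was not tested.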

How the data were processed

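The authors deposited whole-number read counts for 57500 Ensembl genes and a normalized signal, which equals the counts after scaling by a factor for each library. The library kit keeps strand, but the aligner, genome build and strand setting of the counting are not given here, and the submitters' notes name the mouse build mm9. Gene names come from GENCODE v29 (56898 genes found).

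edgeR 4.0.16 (R 4.3.3) was used with TMM, filterByExpr at a minimum count of 10, quasi-likelihood tests and Benjamini-Hochberg adjustment in each of 5 comparisons, without and with a replicate block. Standard errors divide the log2 fold change by the square root of F, and intervals use 95% t quantiles. DESeq2 1.42.0 and limma 3.58.1 were alternatives. Medians by library add 0.5 CPM before logs. The chi-square per gene between replicates was 4.61 or more in the 6 SAS Control and RT libraries and 3.51 or more in all groups, above counting noise.

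Replicate numbers come from the labels. Across genes, deviations correlated at 0.165, 0.225 and 0.274 for same-numbered libraries and at -0.228 to 0.023 for others (limit 0.1), and HT + RT against HT in SAS passed too. Deviations cancel out within a group, so a positive value for the same number forces the values for other numbers down. The contrast between them is thus partly fixed in advance. FaDu passed for same numbers (0.185 to 0.524), but differently numbered libraries reached 0.250 there, so its pairing is not specific to the number.

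Named are altered genes, the study's list, the 10 highest and 10 lowest fold changes (at least 1 log2 CPM, unadjusted p under 0.01, no overlap), called members of the pathway, marker and mitochondrial lists, otherwise up to 4 per list, and part of the called members of the gene families. Members and lists were chosen with earlier results of these data known. Promoters come from RefSeq GRCh38.p14. Python 3.11.15 drew the figures.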

Additional observations from a re-analysis of the deposited data

Results flagged for a closer look

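The response of DUSP2 to RT differed between heated and unheated SAS spheroids in the test of the interaction, by -1.25 on the log2 scale (SE 0.15, edgeR adjusted p = 0.01). The response of PIM1 to RT differed between SAS and FaDu spheroids by -0.72 on the log2 scale (SE 0.093, edgeR adjusted p = 0.032), where the dose was 10 Gy in SAS and 7 Gy in FaDu.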

How the results depend on the processing

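Of the alternatives for the count of genes altered by RT in SAS spheroids (4), RLE size factors gave 4, limma on the deposited normalized counts 4 and a minimum of 10 counts in every library 3. It was 10 with the DESeq2 Wald test, 30 with no filter for low counts, 7 with all 4 SAS groups in 1 fit, 11 with the adjusted p alone, 25 with the replicate block, 10 with the block and DESeq2, and 18 with the block and at least 10 counts in every library. With glmTreat, which tests against the fold threshold itself, edgeR called 0, with 26 genes at an unadjusted p under 0.05 and 10 altered with DESeq2. Leaving out 1 library gave 0 to 5, and the block without replicate 1, 2 or 3 gave 20, 8 and 50.

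The count at an adjusted p under 0.05 with the block (288), for which all alternatives were chosen after seeing the data, was 84 with DESeq2, 436 with no filter, 279 with at least 10 counts in every library, 303 with RLE size factors and 144, 73 and 659 without replicate 1, 2 or 3. For HT + RT against HT (0 with edgeR, 673 at an unadjusted p under 0.05) it was 5 with DESeq2, 7 with no filter, 7 with the block and 0 to 1 without 1 library. For RT in FaDu (1) it was 11, 28, 28 and 0 to 8 in the same order. For the difference between SAS and FaDu (0 with edgeR, 460 at an unadjusted p under 0.05) it was 1, 6, 2 and 0 to 1. For the difference between heated and unheated SAS (1) it was 3, 9, 5 and 0 to 2. The causes were not tested.

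Over the alternatives, 2 of the 129 named genes reversed in sign: GINS2, from -0.084 to 0.019 in the blocked fit without replicate 2, and NDRG1, from -0.39 to 0.063 without Control replicate 3. NDRG1 was -0.80 without RT replicate 3. The block brought 21 of the 129 past the altered thresholds and took none below them. Genes altered with the block were named for that reason, so the count of 21 follows from the choice of genes. Depth limits genes under 0 log2 CPM, with a median standard error of 0.42.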
